A study of Mus musculus with 8 samples.

Results

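Genes of cortical interneurons were followed in nuclei of the mouse dorsal telencephalon, from which the cerebral cortex develops. The genes were chosen by name: Gad1, Gad2, Dlx1, Dlx2, Dlx6os1, Lhx6, Nxph1, Erbb4 and Sst. Of these 9 genes, 8 are among the 14166 genes of the count tables, and Dlx1 was not analysed here. Single-nucleus RNA sequencing with a droplet method (10x Genomics, 3′ chemistry, version 2) counted each captured transcript once by a unique molecular identifier (UMI). The tissue came from mouse embryos of the strain C57BL/6J at E15.5, frozen after dissection, and by the labels 4 samples were wildtype and 4 were Pantr2 knockout (Pantr2-/-). Pantr2 is a long noncoding RNA gene. The labels name no treatment and do not say whether a sample is 1 embryo or a pool, so p-values measure the spread between these samples. The samples held 7280 to 10921 nuclei and 20446698 to 34083796 UMIs each, and 67319 nuclei in all, of which 33781 were wildtype and 33538 knockout. All samples carry 1 library date, and 510 of 66806 distinct cell barcodes occur in more than 1 sample. The counts of the targeted gene were not analysed here, so genotype rests on the labels. Knockout replicate 1 stood apart from the other 3 knockout samples in most of these genes, and results between genotypes are given with and without it. It was singled out by its values in these same genes, so calls made without it are a description and no independent test.

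Cortical interneurons are inhibitory neurons that are not born in the dorsal telencephalon. They arise in the ganglionic eminences of the ventral telencephalon, migrate tangentially into the cortex, and make the transmitter GABA, whereas the excitatory neurons of the cortex are born locally from dorsal progenitors. At mid-neurogenesis, migrating interneurons are therefore present in dissected dorsal tissue as a minority among excitatory neurons and progenitors. Gad1 and Gad2 encode the glutamate decarboxylases that make GABA. Dlx2 encodes a homeodomain transcription factor of ventral progenitors and young GABAergic neurons, and Dlx6os1 (Evf2) is a long noncoding RNA transcribed from the Dlx5 and Dlx6 locus. Lhx6 encodes a LIM homeodomain factor of interneurons from the medial eminence, and Sst encodes somatostatin, a neuropeptide of one of their subclasses. Erbb4 encodes the receptor tyrosine kinase for neuregulins, which guide migrating interneurons, and Nxph1 encodes neurexophilin 1, a secreted ligand of alpha-neurexins.

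The promoters of Dlx6os1 and Sst are shown because each carries a short motif of a factor class known to act in interneurons, and because both genes are counted here in the same nuclei and samples. The sequences are from RefSeq (GRCm38.p6), read 5′ to 3′ on the minus strand, and cover the 250 bases before a listed transcription start. Capitals mark the homeodomain core TAATTA in Dlx6os1 and the cAMP response element TGACGTCA in Sst, both palindromes and so the same on both strands.
Dlx6os1, chr6:6869534-6869783: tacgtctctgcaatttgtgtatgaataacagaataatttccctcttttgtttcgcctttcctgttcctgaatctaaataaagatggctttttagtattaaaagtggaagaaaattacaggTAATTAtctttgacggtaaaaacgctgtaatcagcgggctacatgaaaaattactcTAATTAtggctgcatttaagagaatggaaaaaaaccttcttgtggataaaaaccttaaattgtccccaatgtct
Sst, chr16:23890845-23891094: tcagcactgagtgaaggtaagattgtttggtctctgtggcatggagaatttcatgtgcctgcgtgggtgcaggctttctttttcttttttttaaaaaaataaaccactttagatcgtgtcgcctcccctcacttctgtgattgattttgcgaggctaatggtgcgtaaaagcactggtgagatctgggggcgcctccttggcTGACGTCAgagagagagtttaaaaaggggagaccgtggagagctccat
The Dlx6os1 window holds 2 matches, which begin 130 and 74 bases upstream of the start, and the Sst window holds 1 match 48 bases upstream. Among 32851 promoter windows of 300 bases in the table, 5.29% hold TAATTA and 1.79% hold TGACGTCA. The 9 listed genes have 12 such windows, of which 2 hold TAATTA, both of Dlx6os1, and 1 holds TGACGTCA. A match of letters describes the window and no binding was measured.

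Most UMIs of the interneuron genes that the study had counted were in nuclei outside the 67319 analysed here. The authors' deposited table of genes gives, for each gene, the mean UMIs per nucleus and the number of nuclei with more than 1 UMI over an earlier set of nuclei. The number of nuclei in that set was inferred as 83304, the one number between the deposited count and 2-fold of it at which every one of the 14166 means in the authors' deposited table gives a whole number of UMIs, within 0.001 UMI. By that reading 15985 nuclei of the earlier set were not analysed here, and 80.8% of it is the set analysed. For the median gene 79.9% of its UMIs in that set are in the analysed nuclei, and the 10th percentile over genes is 70.9%. For the 8 interneuron genes the median is 11.7%.

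In the authors' deposited table, Nxph1 had 106079 UMIs in the earlier set and 4462 in the deposited nuclei, or 4.21%, the lowest share of all 14166 genes. Erbb4 had 261584 and 12207 UMIs by the authors' deposited table, or 4.67%, which is rank 3 from the bottom. Gad2 (rank 11) kept 9.93%, Dlx6os1 (rank 12) 10.8% and Gad1 (rank 22) 12.6% of the UMIs in the authors' deposited table. The number of nuclei with more than 1 UMI of Gad2 went from 7511 in the authors' deposited table to 397. Sst kept 18.6%, Lhx6 26.6% and Dlx2 52.0% of the UMIs in the authors' deposited table, so Dlx2 stood nearest to the median gene.

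**Figure D1:**
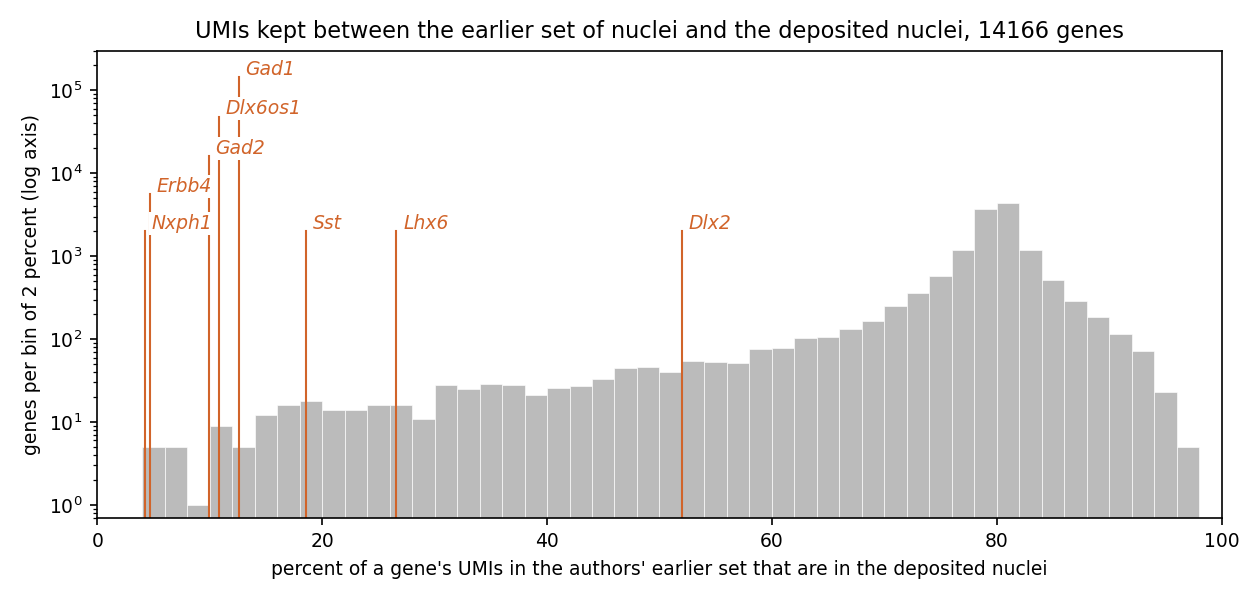
Percent of each gene's UMIs in the authors' earlier set of nuclei that are in the deposited nuclei (x axis), as a histogram over 14166 genes with the number of genes on a log axis. The vertical lines mark the 8 interneuron genes, which lie between 4.21% (Nxph1) and 52.0% (Dlx2), while the median gene is at 79.9%.

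Other genes of the same classes had low shares too, and genes of the excitatory lineage did not. In the authors' deposited table the median share was 18.6% over 10 interneuron markers (among them the members Gad1, Gad2, Dlx2, Dlx6os1, Lhx6, Nxph1 and Sst), 13.6% over 7 markers of Cajal-Retzius cells (early-born neurons of the marginal zone), 28.8% over 7 markers of striatal projection neurons, 38.2% over 4 microglial markers and 37.9% over 6 endothelial or mural markers. It was 86.9% over 8 genes of the excitatory lineage and 82.6% over 9 apical progenitor markers in the authors' deposited table. Genes at the bottom beside the 8 include Nrxn3, a neurexin gene, at 7.99%, the neurexophilin gene Nxph2 at 7.39% and Trp73, a Cajal-Retzius cell gene, at 7.99% of the UMIs in the authors' deposited table. The authors' deposited table does not split the earlier set by sample or genotype. Everything below therefore describes the UMIs of these genes that remained in the 67319 deposited nuclei, and the numbers of interneurons in the tissue cannot be read from them.

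The deposited annotation puts each nucleus in 1 of 7 clusters, and no cluster was led by interneuron genes. Cluster 1 took the name upper-layer excitatory neuron-like from its levels of markers such as Cux1, Cux2 and Pou3f1. Clusters 2 and 3 were called deep-layer excitatory neuron-like, the first from Bcl11b, Fezf2, Sox5 and Ldb2 and the other from Tbr1, Tle4, Foxp2 and Hs3st4. Cluster 4 was called apical progenitor-like, with 8 markers such as Nes, Hopx and Slc1a3 at their highest level, although Gad2 and Dlx6os1 also had their highest level there. Cluster 5 held the highest level of 5 intermediate progenitor markers such as Btg2, but Unc5d, an upper-layer marker, is among its 10 leading genes, so it stayed unnamed, as did clusters 6 and 7. Tafa1 and Grik1 led cluster 6, where Nxph1 and Sst had their highest level. The names were rebuilt from marker genes and can differ from those of the study.

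Gad1, Gad2, Dlx6os1 and Erbb4 were found most often in cluster 4 and Nxph1 in cluster 6, while Dlx2, Lhx6 and Sst were spread thinly over all 7. For comparison across depths, 1400 UMIs were drawn at random from each nucleus (thinning). A UMI of Gad2 was then found in 2.94% of the nuclei of cluster 4 (95% exact binomial interval 2.63% to 3.28%, counting error only) and in 1.71% of cluster 1 (1.50% to 1.93%), whose excitatory neuron-like nuclei should lack the gene. Without thinning the values were 5.33% and 2.75%, at median depths of 2908 and 2426 UMIs. Dlx6os1 was found in 2.78% of thinned nuclei of cluster 4 and in 1.14% to 1.61% of each other cluster. The interval of cluster 4 (2.48% to 3.10%) lay above those of the others.

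Erbb4 was found in 6.07% of thinned nuclei of cluster 4, in 4.98% of cluster 6 and in 3.05% of cluster 1. Nxph1 was found in 4.09% of cluster 6 (interval 3.58% to 4.65%), in 2.98% of cluster 4 and in 1.13% of cluster 1. Of the 211 nuclei with at least 5 UMIs of Nxph1, 71 were in cluster 6, and 58 of those 71 held no UMI of the 5 core genes Gad1, Gad2, Dlx2, Dlx6os1 and Lhx6. Of the 404 nuclei with at least 5 UMIs of Erbb4, 236 were in cluster 4. Gad1 was found in 0.712% of thinned nuclei of cluster 4 and in 0.397% of cluster 1, with intervals of 0.564% to 0.888% and 0.302% to 0.513% that did not overlap. Clusters 5, 6 and 7 held it in 0.664%, 0.621% and 0.500%, with intervals that overlapped that of cluster 4. For Gad1, cluster 4 is thus not set apart from these clusters beyond counting error.

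The shares of Dlx2, Lhx6 and Sst in cluster 4 did not stand above those in cluster 1 beyond counting error. Dlx2 was found in 0.986% and 0.801% of thinned nuclei of clusters 4 and 1, Lhx6 in 0.457% and 0.438%, and Sst in 1.31% and 1.37%. In clusters 4 and 1 the shares are thus at the level of nuclei that should lack the genes, and the source of these UMIs was not tested. For Lhx6, 98.5% of the 652 nuclei with a UMI held exactly 1, and for Dlx2 97.3% of 1102 did. Neither of these 2 genes had more than 2 UMIs in a nucleus. In contrast, Dlx6os1 reached 20 UMIs, Sst 34 UMIs and Erbb4 69 UMIs in a single nucleus. At least 5 UMIs of Sst were held by 13 nuclei, so for Sst the shares in clusters 4 and 1 do not describe every nucleus. In cluster 6, Sst was found in 1.86% of thinned nuclei (interval 1.52% to 2.26%). That interval lay above the one of cluster 3 (1.06% to 1.47%) and overlapped the one of cluster 1 (1.19% to 1.57%).

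**Figure D2:**
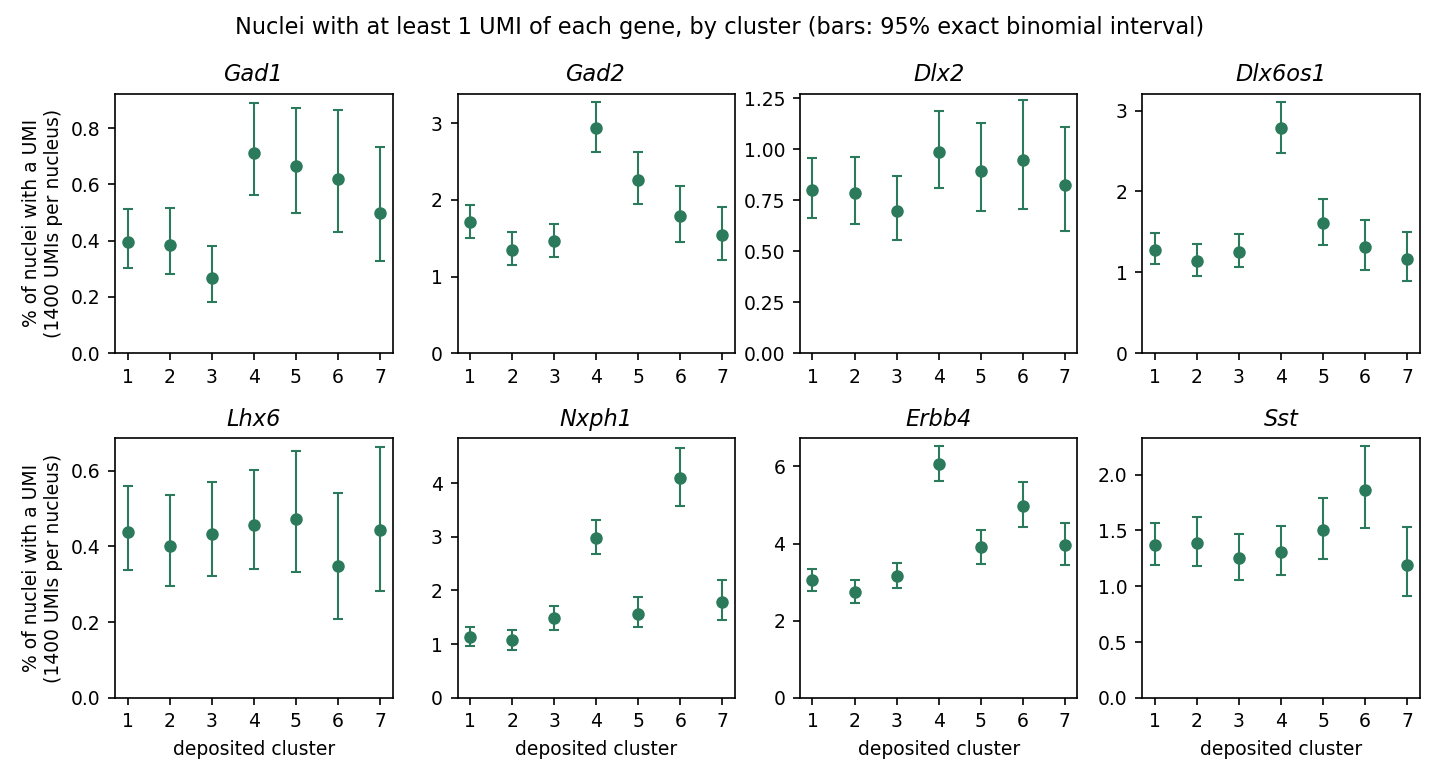
Percent of nuclei with at least 1 UMI of each gene (y axis) in each deposited cluster (x axis), after thinning to 1400 UMIs per nucleus, with 95% exact binomial intervals that cover counting error only. Dlx6os1 stands highest in cluster 4 (2.78%) and Nxph1 in cluster 6 (4.09%), while the values of Lhx6 lie between 0.347% and 0.473% in all clusters.

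Nuclei that held several interneuron genes at once were rare. The listed core genes were Gad1, Gad2, Dlx1, Dlx2, Dlx6os1 and Lhx6, of which 5 could be read, and a nucleus with a UMI of at least 2 of them is called co-detecting. Nxph1, Erbb4 and Sst stayed out of this definition. Of 67319 nuclei, 639 (0.949%) were co-detecting, 115 held at least 3 core genes and 11 held at least 4. Cluster 4 held 293 of the 639 (45.9%) and 76 of the 115 (66.1%). After thinning, 1.22% of cluster 4 was co-detecting (95% exact binomial interval 1.03% to 1.45%) and 0.0856% to 0.385% of each other cluster. Co-detecting nuclei were deeper, with a median of 3590 UMIs against 2754 in nuclei with 0 core genes, and their median doublet score, a score deposited by the authors with no unit, was 0.217 against 0.135. The part of doublets, droplets that hold more than 1 nucleus, in these counts was not tested beyond the fits on low scores given below.

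The genes were found together in unequal degree. Within each sample and cluster, the number of thinned nuclei holding both genes of a pair was set beside the number that the product of their shares gives. The pair Gad2 and Dlx6os1 was found in 155 nuclei, 5.68 times the product, Gad1 and Dlx6os1 in 36, 5.38 times the product, and Gad1 and Gad2 in 34, 4.28 times. Dlx6os1 and Erbb4 shared 206 nuclei (4.14 times the product), and Nxph1 and Erbb4 shared 212 (3.72 times). Sst stood near the product with Gad2 (19 nuclei, 1.04 times), and Dlx2 with Lhx6 was found in 1 nucleus against 2.66 from the product. Pairs with few nuclei, such as the last, cannot be ranked at this depth.

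The 3 genes left out of the definition were found more often in nuclei with 1, 2 and 3 core genes than in those with 0. Erbb4 had a UMI in 6.30% of the nuclei with 0 core genes, in 8.63% with 1, in 40.3% with 2 and in 75.0% with 3. Nxph1 went from 2.88% to 4.79%, 16.8% and 27.9% over the same steps. Sst went from 2.76% to 3.18%, 4.58% and 7.69%. In the 10 nuclei with 4 core genes, Erbb4 was found in 100%, Nxph1 in 10.0% and Sst in 0. The median depth rose along these steps from 2754 to 4151 UMIs, so the shares are not at equal depth. Co-detecting nuclei held 46.7% of all UMIs of Dlx6os1 and 40.3% of those of Erbb4, but 11.0% of those of Lhx6 and 4.67% of those of Sst.

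A comparison of the summed UMIs of co-detecting nuclei with those of the other nuclei of the same samples asked what else these nuclei hold. The core genes were left out of the table before the fit, since they chose the nuclei. Erbb4 was at 2295 ± 648 CPM (UMIs relative to the library size after TMM scaling, mean ± SD over n = 8 samples) in co-detecting nuclei and at 37.9 ± 13.8 CPM in the others. Its log2 fold change was 5.75 ± 0.14 (SE), adjusted p = 5.72e-51 in edgeR's quasi-likelihood test, and it was higher in 8 of 8 samples. Nxph1 was at 500 ± 275 against 18.5 ± 6.52 CPM, a log2 fold change of 4.28 ± 0.16 (edgeR-adjusted p = 1.10e-38), higher in 8 of 8 samples. Sst was at 48.4 ± 55.4 against 10.3 ± 3.34 CPM, a log2 fold change of 1.82 ± 0.26 (edgeR-adjusted p = 2.72e-08), and was higher in 5 of 8 samples. All 3 were called (adjusted p under 0.05) and higher, as were 6.10% of the 13111 genes tested, while 7.40% were lower. With DESeq2 the call of Sst was lost (log2 fold change 1.39, adjusted p = 0.173). With nuclei at or under the median doublet score alone, 170 of them co-detecting, the log2 fold changes of Erbb4 and Nxph1 were 4.68 and 2.40. Sst had 0 UMIs in those 170 nuclei against 896 in the 33490 other nuclei of low score.

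Besides Erbb4 and Nxph1, the 12 genes with the largest increase were Nrxn3, Gm45680, Adarb2, Sox2ot, Gm14204, Sox1ot, Ptprm, Sorcs3, Ebf1 and Mob3b. Nrxn3, which encodes a presynaptic neurexin, was at 7911 ± 1591 CPM in co-detecting and 190 ± 89.2 CPM in other nuclei (log2 fold change 5.32 ± 0.16). Adarb2, an RNA-binding protein gene known from caudal eminence interneurons, had a log2 fold change of 3.86 ± 0.11, and the long noncoding RNA Sox2ot one of 3.68 ± 0.11. All 10 passed the test in edgeR and were higher in 8 of 8 samples. Genes with a large decrease included Tfap2d, Itprid1, Nos1, Cntn2 and Kcnq3, with log2 fold changes between -1.36 and -1.29, each called in edgeR and lower in 8 of 8 samples. With low doublet scores alone Tfap2d, Itprid1, Nos1 and Cntn2 lost their calls (edgeR-adjusted p from 0.0505 to 0.346), and against a cluster-matched reference, described below, the 5 were at -0.93 to -0.53. Kcnq3, a potassium channel gene, was at 554 ± 159 CPM in co-detecting and 1268 ± 125 CPM in other nuclei. Cntn2, which encodes an axonal adhesion protein, was at 25.7 ± 18.2 against 84.7 ± 17.5 CPM.

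Of 12 other ventral and GABAergic genes tested, a list that holds Nrxn3 and Gm14204, 9 were called higher and 2 lower (Kit and Robo2), with a median log2 fold change of 1.67 against -0.07 over all genes tested. The lists were chosen with earlier results of these data known, so the counts by list are a description. Dlx5 had a log2 fold change of 1.98, Slc32a1, the vesicular GABA transporter gene, one of 2.35, and Sp8, a zinc finger factor of caudal and lateral eminence, one of 2.10. Of 8 medial eminence interneuron genes 3 were higher (Sox6, Maf and Elfn1) and 1 lower (Zeb2). Of 7 caudal eminence interneuron genes 3 were higher (Adarb2, Prox1 and Npas1) and 1 lower (Cnr1). Of 8 striatal-type genes 4 were higher (Isl1, Ebf1, Ikzf1 and Drd2). Of 8 genes of the excitatory lineage 5 were lower, and of 9 apical progenitor markers 2 were higher and 1 lower.

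Cluster 4 holds many of these nuclei, so the same fit was made against a reference with the same share of each cluster. It called 269 genes higher and 211 lower, where the fit against all other nuclei called 800 and 970. Erbb4 stayed at 5.39, Nxph1 at 4.04 and Nrxn3 at 4.86 on the log2 scale, and 7 of 11 ventral and GABAergic genes tested were higher. Of the medial eminence, caudal eminence and striatal-type genes, 2 of 7, 1 of 5 and 1 of 4 tested were higher and 0 lower. Their median log2 fold changes were 0.36, 0.02 and 0.10, and Elfn1, Npas1, Isl1, Ikzf1 and Drd2 were not among those tested. Of the 9 apical progenitor markers 0 were higher and 3 lower against this reference. Sox6 was at 1.20 against all other nuclei and at 0.02 (edgeR-adjusted p = 0.941) against the matched reference. With low doublet scores the counts were 54 and 213, with at least 3 core genes 339 and 993, and with DESeq2 702 and 522.

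**Figure D3:**
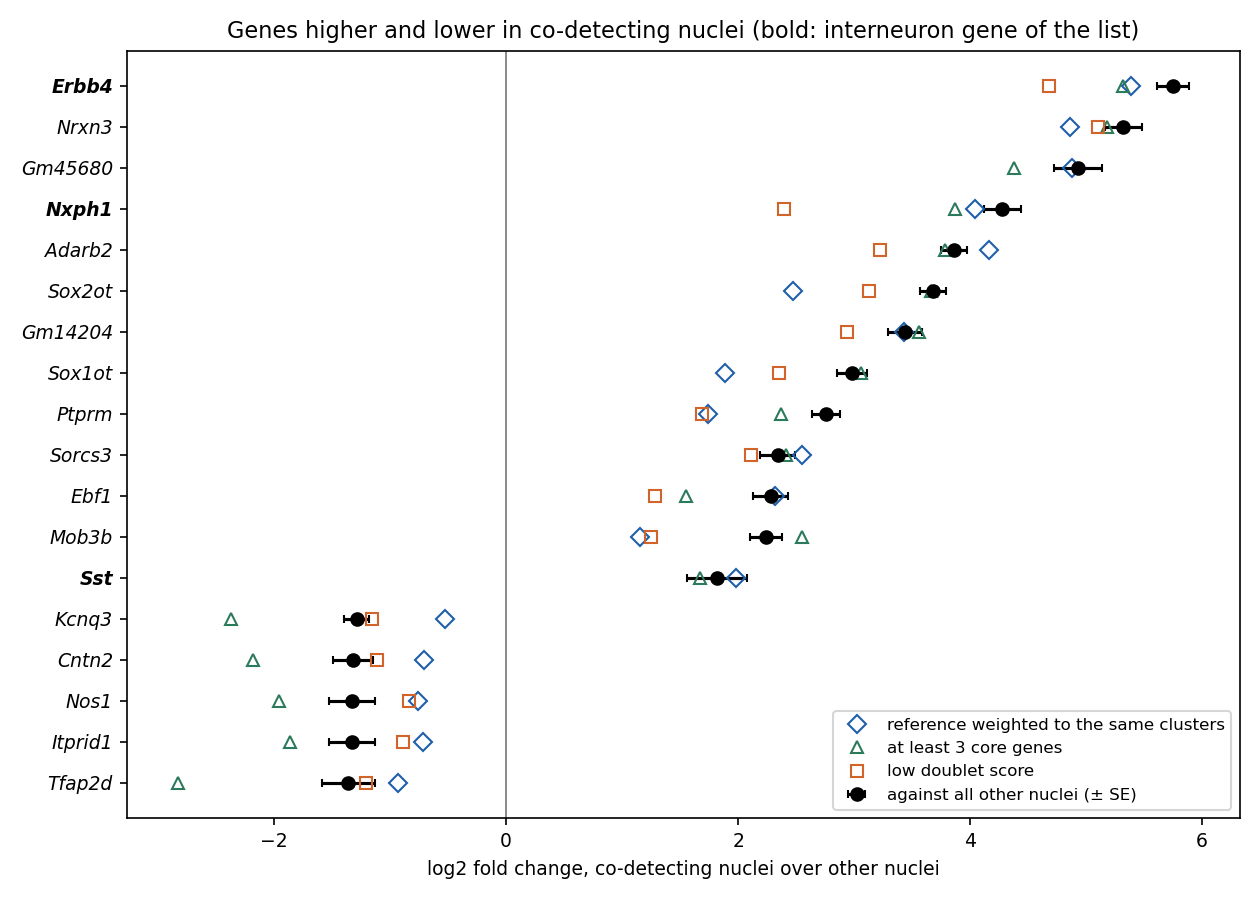
Log2 fold change of co-detecting over other nuclei (x axis) for the 12 genes with the largest increase, the 5 named genes with a large decrease and Sst, with SE for the fit against all other nuclei and open marks for 3 alternatives. Erbb4 (5.75) and Nrxn3 (5.32) stand at 4.68 and 4.86 or above under each alternative shown, and neither Gm45680, which could not be fitted, nor Sst, which had 0 UMIs, has a mark for low doublet scores.

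For each of the 8 genes but Sst, knockout replicates 2, 3 and 4 lay below every wildtype sample, while knockout replicate 1 lay below all of them for Lhx6 alone. How many of all genes show the pattern of replicates 2, 3 and 4 was not counted, so it is a description. UMIs were summed over all nuclei of a sample, where fewer nuclei that hold a gene and fewer transcripts per nucleus cannot be told apart. Of the 8 genes tested, 2 were called in edgeR's quasi-likelihood test, Dlx2 and Lhx6, both lower in the knockout samples, as were 3.58% of the 13927 genes tested. They are among the genes whose shares of nuclei in cluster 4 did not stand above those in cluster 1 beyond counting error. Of the UMIs of Dlx2 13.0%, and of those of Lhx6 11.0%, lay in co-detecting nuclei. All 8 had a log2 fold change below 0, with a median of -0.82 against 0.00 over all genes. With the replicate number as a block, 4 were called, Gad1, Gad2, Dlx2 and Lhx6, where 5.97% of all genes were called lower. Without knockout replicate 1 all but Sst were called (3.05% of all genes). With any 1 other sample left out instead, 0 to 2 of the 8 genes were called.

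Dlx2 (ENSMUSG00000023391, a protein-coding gene on the minus strand of chromosome 2, from 71543408 to 71546754 in GRCm38) was at 10.7, 7.74, 5.17 and 8.90 CPM in wildtype replicates 1 to 4 and at 5.77, 1.97, 3.16 and 2.45 CPM in knockout replicates 1 to 4. The groups overlapped by 1 sample, knockout replicate 1, which lay above wildtype replicate 3. The log2 fold change was -1.31 ± 0.32 (SE), and the edgeR-adjusted p of 0.0439 lay between 0.00184 and 0.134 over 13 alternatives. The call was lost without any 1 of wildtype replicates 1, 2 and 4 and knockout replicates 2, 3 and 4.

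Lhx6 (ENSMUSG00000026890, minus strand of chromosome 2, from 36081953 to 36105408) was at 4.64, 3.60, 3.98 and 4.25 CPM in the wildtype samples and at 3.08, 2.12, 2.39 and 2.70 CPM in knockout samples. Every knockout sample, replicate 1 included, lay below every wildtype sample, which held for 7.10% of all genes tested. The log2 fold change was -0.69 ± 0.14 (edgeR-adjusted p = 0.0227). With wildtype replicate 1 or 4, or knockout replicate 2 or 3, left out, the edgeR-adjusted p lay between 0.0509 and 0.0847.

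The genes of GABA synthesis did not pass edgeR's test with all 8 samples and genotype as the only term. Gad1 (ENSMUSG00000070880, plus strand of chromosome 2, from 70553072 to 70602014) was at 6.57, 3.56, 5.00 and 4.98 CPM in wildtype and 4.21, 1.50, 2.18 and 1.75 CPM in knockout samples. Gad2 (ENSMUSG00000026787, plus strand of chromosome 2, from 22622205 to 22693874) was at 24.1, 19.8, 14.3 and 26.8 CPM in wildtype and 21.7, 6.23, 5.97 and 8.16 CPM in knockout samples. For both genes knockout replicate 1 lay inside the wildtype range and the other 3 knockout samples below it. The log2 fold changes were -1.09 ± 0.30 and -1.03 ± 0.39 (edgeR-adjusted p = 0.0721 and 0.174). With the replicate block these p-values were 0.00598 and 0.0277, and without knockout replicate 1 they were 0.00949 and 0.00424. DESeq2 called Gad1 (adjusted p = 0.0130) and not Gad2 (0.233).

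Dlx6os1 (ENSMUSG00000090063, minus strand of chromosome 6, from 6820189 to 6871592) showed the same picture. It was at 24.8, 18.8, 14.3 and 24.1 CPM in the wildtype samples and at 24.4, 4.53, 7.04 and 6.96 CPM in knockout samples. Knockout replicate 1 was near the highest wildtype sample, more than 3-fold above each other knockout sample. The log2 fold change was -0.95 ± 0.45 (edgeR-adjusted p = 0.285), and -1.75 with an adjusted p of 0.00415 without knockout replicate 1. The gene overlaps Dlx6 on the opposite strand, and no setting of strand in the counting is given in the sources used here, so UMIs of the 2 genes may not be separate.

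The receptor Erbb4 (ENSMUSG00000062209, minus strand of chromosome 1, from 68032186 to 69108059) was at 88.9, 64.8, 64.1 and 72.3 CPM in wildtype and 111, 32.5, 29.4 and 37.8 CPM in knockout samples. Nxph1 (ENSMUSG00000046178, plus strand of chromosome 6, from 8948431 to 9249032) was at 27.8, 23.7, 29.7 and 23.5 CPM in wildtype and 36.1, 14.4 and 11.7 CPM in knockout replicates 1 to 3, with replicate 4 between replicates 2 and 1. Knockout replicate 1 was the highest of all 8 samples for both genes, and the other 3 knockout samples were the lowest. The log2 fold changes were -0.46 ± 0.38 and -0.44 ± 0.30 (edgeR-adjusted p = 0.560 and 0.480). Without knockout replicate 1 they were -1.13 and -0.91, with adjusted p-values of 0.00220 and 0.00477.

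Sst (ENSMUSG00000004366, minus strand of chromosome 16, from 23889573 to 23890958) was at 13.6, 12.1, 17.8 and 8.35 CPM in wildtype and 10.3, 9.85, 7.55 and 6.11 CPM in knockout samples. The groups overlapped, with wildtype replicate 4 among the knockout values, and knockout replicate 1 did not stand out. The log2 fold change was -0.61 ± 0.23 (edgeR-adjusted p = 0.173), and 0.160 without knockout replicate 1.

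**Figure D4:**
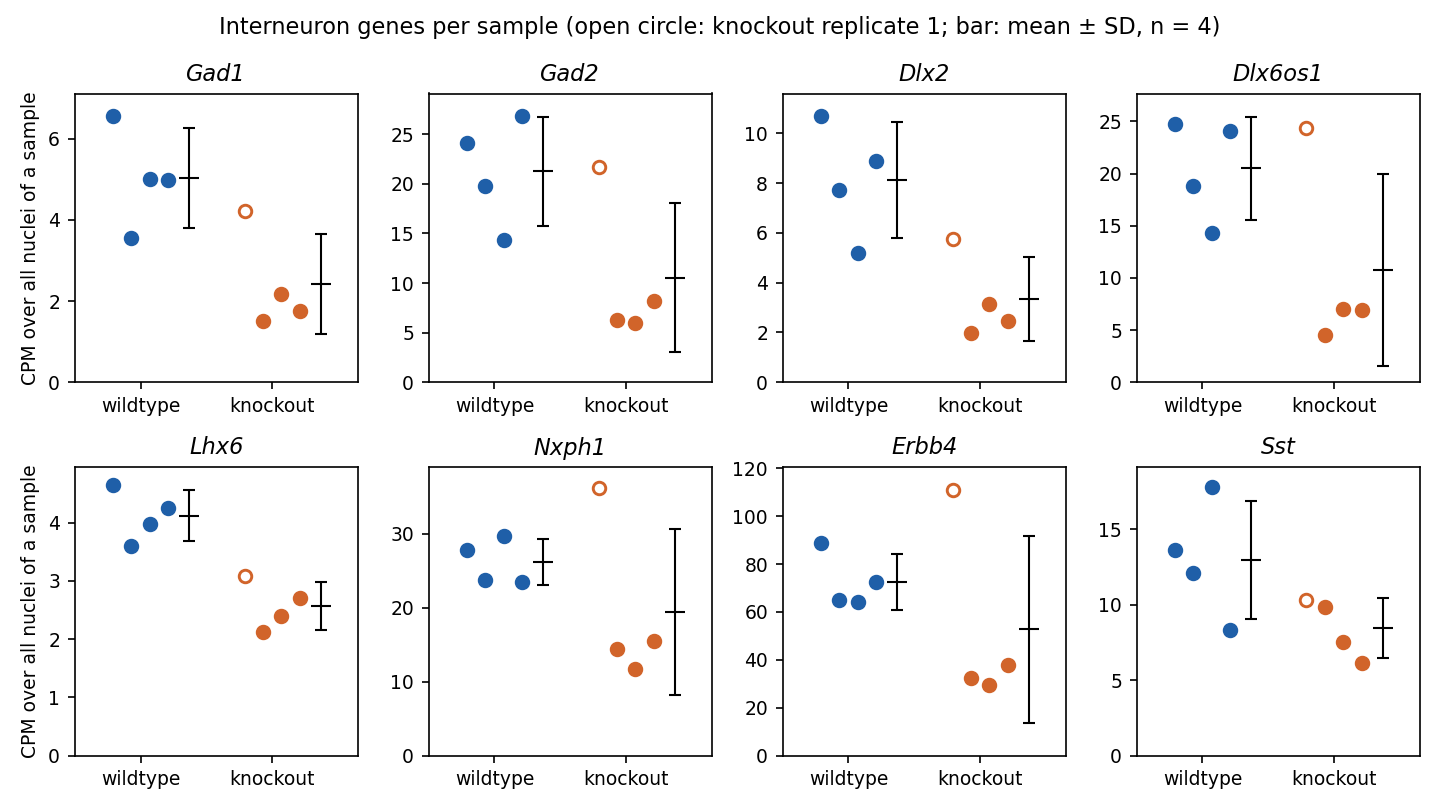
Level of each interneuron gene in CPM over all nuclei of a sample (y axis) in the 4 wildtype and 4 knockout samples, in the order of replicates 1 to 4, with the mean and SD of each group. The open circle is knockout replicate 1, which is the highest of all samples for Erbb4 (111 CPM) and Nxph1 (36.1 CPM), while Lhx6 shows no overlap between the groups.

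The sums were also made without the 639 co-detecting nuclei. Of the 3 genes outside the definition none was called there. Nxph1, Erbb4 and Sst had log2 fold changes of -0.58, -0.48 and -0.59 (edgeR-adjusted p = 0.263, 0.398 and 0.159). The core genes Gad1, Gad2, Dlx2, Dlx6os1 and Lhx6 were at -1.20, -1.17, -1.29, -1.40 and -0.60 in the remaining nuclei, which hold at most 1 of them. All 5 had an adjusted p under 0.05 and were lower, as were 3.57% of all genes, but their own UMIs decided which nuclei were left out, so nothing is read from these calls.

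Genes of related cell types were counted beside them over all nuclei. Of 12 other ventral and GABAergic genes, 2 were called lower, Dlx5 (7.77 ± 1.83 to 3.57 ± 1.21 CPM) and Slc32a1 (2.52 ± 0.217 to 1.36 ± 0.229 CPM; n = 4 per group), and 1 higher, Kit, with 6 called under the replicate block and 5 without knockout replicate 1. Over all genes tested, 3.58% were called lower, 5.97% with the block and 3.05% without knockout replicate 1. The share called higher is not given here. Of 8 medial eminence interneuron genes 1 was called, Npy, lower at -1.61 on the log2 scale. The replicate block called 4 of them, among them Npy and Cux2 lower and Sox6 higher (log2 fold change 0.45 without the block; edgeR-adjusted p = 0.0379 with it). Of 7 caudal eminence genes 0 were called in edgeR, 4 had a log2 fold change below 0, and the block called 2 in opposite directions. Adarb2 was at -0.96 on the log2 scale (edgeR-adjusted p = 0.125, 0.00180 with the replicate block and 0.0463 without knockout replicate 1). Cnr1 was at 0.28 (edgeR-adjusted p = 0.301, and 0.0166 with the block). Of 8 striatal-type genes Isl1 was lower (-2.65) and Foxp1 higher (0.43).

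The summed level of the 10 interneuron markers was 114 to 146 CPM in wildtype and 59.7 to 134 CPM in the knockout samples, and 4 of the 10 were called lower. These were Dlx2, Lhx6, Dlx5 and Slc32a1, whose calls are given above, where 3.58% of all genes tested were called lower. Markers of other classes were summed in the same way and did not all lie in 1 direction. The 4 oligodendrocyte lineage markers summed to 4.54 to 6.77 CPM in wildtype and 1.58 to 2.12 CPM in the knockout samples, with 2 of 3 tested called lower. The 4 microglial markers summed to 5.64 to 7.31 CPM in wildtype samples, above all knockout samples (at most 5.06 CPM), with 0 of 4 called, and the 6 endothelial or mural markers to 16.2 to 17.1 and 13.2 to 14.8 CPM, with 1 of 6 called lower. The 7 striatal projection neuron markers summed to 42.5 to 79.2 and 32.2 to 42.8 CPM, with 1 of 4 tested called lower, and Tac1 had 0 UMIs in at least 1 sample. The 5 blood markers, hemoglobin genes, summed to 313 to 612 and 233 to 519 CPM, which overlap, with 1 called higher. The 7 Cajal-Retzius cell markers summed to 42.3 to 58.7 CPM in wildtype and 49.0 to 73.1 CPM in knockout samples and the 4 choroid plexus or hem markers to 112 to 269 and 136 to 168 CPM, with median log2 fold changes of 0.34 and 0.27 over those tested and 0 called in edgeR. The part of these classes, of free RNA or of the nuclei of the earlier set not analysed here in the differences between genotypes was not tested.

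Within clusters few of the interneuron genes passed the test. In clusters 1 to 7 the log2 fold change was below 0 for 8 of 8, 7 of 8, 8 of 8, 7 of 7, 5 of 6, 5 of 5 and 6 of 6 genes tested. In cluster 1, 3 of 8 genes were called lower (2.30% of all genes). These were Dlx2 (8.43 ± 2.04 to 2.60 ± 1.30 CPM, log2 fold change -1.82), Gad2 (16.6 ± 4.13 to 7.26 ± 2.80 CPM, -1.32) and Dlx6os1 (12.9 ± 1.58 to 6.05 ± 3.80 CPM, -1.34; n = 4 per group). Their edgeR-adjusted p-values were 0.00181, 0.00495 and 0.0199, and Dlx6os1 lost its call without wildtype replicate 4 or knockout replicate 2 or 3, where its adjusted p was above 0.05. For all 3 genes every knockout sample lay below every wildtype sample of cluster 1, as held for 4.78% of the 11664 genes tested there, for Dlx6os1 by a narrow margin (11.1 against 11.2 CPM). The values lie in nuclei of excitatory neuron-like type, nearly all with single UMIs: Gad2 had more than 1 UMI in 23 of the 402 nuclei of cluster 1 that held it.

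In cluster 2, Dlx2 (7.88 ± 2.49 to 3.19 ± 1.11 CPM) and Lhx6 (4.19 ± 0.499 to 2.13 ± 0.247 CPM; n = 4 per group) were called lower, 2 of 8 genes, where 5.19% of all genes were. The edgeR-adjusted p of Lhx6 there was 0.0166, and it rose to 0.0950 with DESeq2, to 0.0607 without wildtype replicate 1 and to 0.0527 without knockout replicate 2. The log2 fold changes of Nxph1 and Erbb4 in cluster 2 were 0.09 and -0.05 (edgeR-adjusted p = 0.877 and 0.960). In cluster 3, Dlx6os1 was the 1 gene called of 8 (13.9 ± 4.14 to 5.71 ± 4.14 CPM, edgeR-adjusted p = 0.0361; n = 4 per group), where 1.88% of all genes were called lower. Leaving out any of wildtype replicates 1, 2 and 4 or knockout replicates 2, 3 and 4 ended that call (edgeR-adjusted p of up to 0.133). With the replicate block 4 genes were called in each of clusters 2 and 3 (5.79% and 2.99% of all genes were lower), and without knockout replicate 1 the counts were 4 and 3 (4.57% and 1.60%).

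In cluster 4, which holds 66.1% of the nuclei with at least 3 core genes, 0 of 7 genes tested were called by edgeR (3.12% of all genes were lower), and DESeq2 called 1. In edgeR 6 had an unadjusted p under 0.05, and the share of all genes under that threshold was not counted. Erbb4 was at 221, 216, 220 and 176 CPM in wildtype and 239, 65.3, 63.7 and 81.4 CPM in the knockout samples of cluster 4. Gad2 was at 47.4, 52.8, 26.9 and 53.9 CPM in wildtype and 36.4, 9.56, 10.2 and 14.8 CPM in knockout samples. For both genes knockout replicate 1 was within or above the wildtype values and the other 3 knockout samples lay below all of them. Without knockout replicate 1, 6 of the genes were called (3.18% of all genes were lower), with log2 fold changes of -2.04 for Gad2 and -1.58 for Erbb4, and the replicate block called 3 (2.96%). In the same cluster the 9 apical progenitor markers summed to 3538 to 3985 CPM in wildtype and 2438 to 2658 CPM in the knockout samples, with 3 of 9 called lower, and the part of this difference in the values above was not tested.

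In clusters 5, 6 and 7 edgeR called 0 of 6, 0 of 5 and 0 of 6 genes tested, where 0.906%, 0.428% and 0.455% of all genes were called lower, and DESeq2 called 0 in each. In these clusters 3, 1 and 3 of the genes had an unadjusted p under 0.05 in edgeR, where the share of all genes under that threshold was not counted. Without knockout replicate 1, edgeR called 3 in cluster 5 (0.957% of all genes were lower) and 4 in cluster 7 (0.476%). With the replicate block it called 0 in cluster 5 (0.934%) and 4 in cluster 7 (1.11%). Nxph1 in cluster 6, where it was found most often, was at 59.7 ± 15.3 CPM in wildtype and 55.1 ± 19.9 CPM in the knockout samples (n = 4 per group), a log2 fold change of -0.10 ± 0.23. Whether the changes differ between clusters was not tested.

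The share of co-detecting nuclei followed the same division of the samples. Before thinning, the wildtype samples held 128, 91, 58 and 168 co-detecting nuclei and the knockout samples 131, 23, 21 and 19. After thinning the shares were 0.634%, 0.429%, 0.320% and 0.618% in wildtype and 0.708%, 0.0549%, 0.0876% and 0.0962% in knockout samples. Knockout replicate 1 was the highest of the 8 samples, and the other 3 knockout samples lay below every wildtype sample. The means were 0.500 ± 0.152% and 0.237 ± 0.315% (SD, n = 4 per group), a difference of -0.264 percentage points that did not pass an exact two-sided permutation test over the samples (p = 0.229). Without knockout replicate 1 the difference was -0.421 percentage points, and its exact permutation p was 0.0286, the lowest possible with 4 against 3. With each other sample left out instead, the exact permutation p lay between 0.143 and 0.400.

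Nuclei with exactly 1 core gene separated the genotypes without overlap. After thinning they made up 7.32%, 5.32%, 4.60% and 7.16% of the wildtype and 4.38%, 1.96%, 2.23% and 2.25% of the knockout samples. All knockout samples lay below all wildtype samples, with knockout replicate 1 nearest to them. The difference was -3.40 percentage points (6.10 ± 1.35% against 2.71 ± 1.13%, n = 4 per group) and had an exact permutation p (two-sided) of 0.0286, which no split of 4 against 4 samples can undercut. This measure was added after the values had been seen. Nuclei with at least 3 core genes made up 0.0365 ± 0.0360% and 0.0398 ± 0.0645% after thinning, a difference of 0.00322 percentage points (exact permutation p = 0.971, n = 4 per group).

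**Figure D5:**
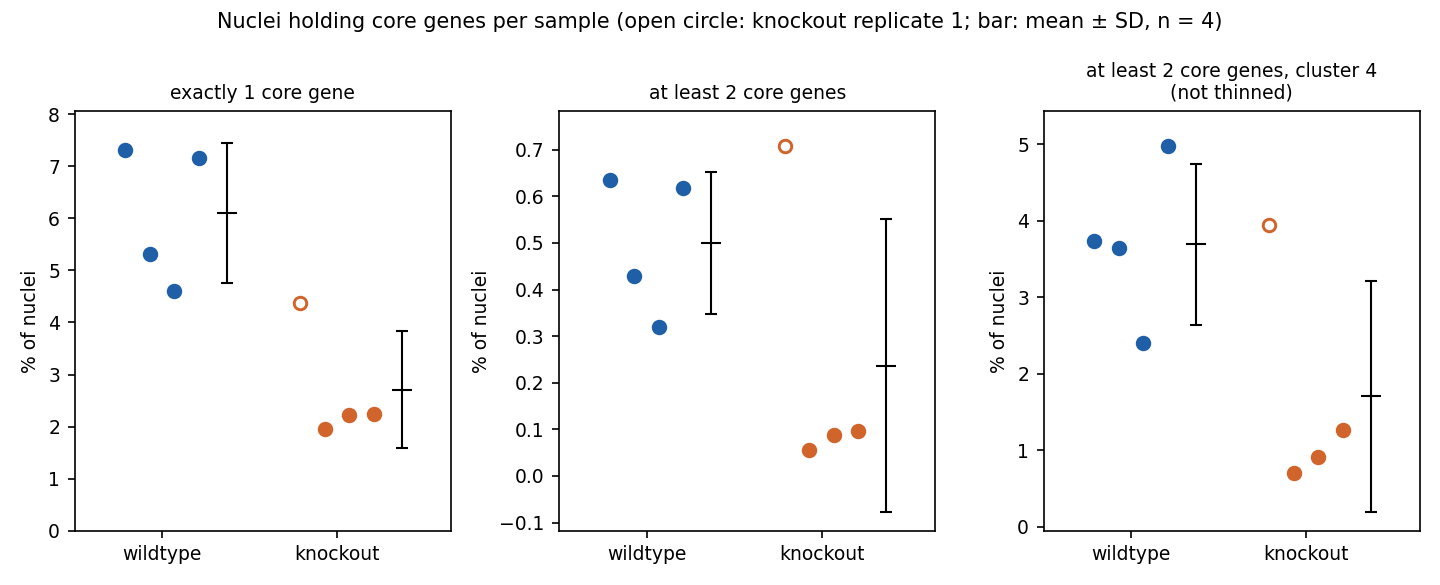
Percent of nuclei per sample (y axis) with exactly 1 and with at least 2 core genes, thinned to 1400 UMIs, and with at least 2 core genes in cluster 4 without thinning, with the mean and SD of each group. The open circle is knockout replicate 1, at 0.708% for at least 2 core genes where the other knockout samples lie between 0.0549% and 0.0962%.

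Where the co-detecting nuclei lay differed between samples as well. Cluster 4 held 32.8% to 48.4% of them in the wildtype samples and 52.4% to 65.2% in the knockout samples, without overlap. In cluster 4 the unthinned share of co-detecting nuclei was 3.74%, 3.65%, 2.41% and 4.98% in wildtype and 3.95%, 0.699%, 0.908% and 1.26% in knockout samples. In the other clusters together it was 0.902 ± 0.382% and 0.348 ± 0.462% (n = 4 per group). Knockout replicate 1 was at 1.04% there, and the mean of the other 3 knockout samples was 0.117%. These shares were not tested.

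Within the co-detecting nuclei, Nxph1 was called between genotypes and Erbb4 was not, the 2 genes outside the definition with enough UMIs for the test. It was at 219, 298, 577 and 182 CPM in wildtype and 456, 908, 512 and 823 CPM in the knockout samples, where wildtype replicate 3 lay among the knockout values. The log2 fold change was 1.10 ± 0.28 (edgeR-adjusted p = 0.0437), higher, as were 0.582% of 5325 genes. Leaving out any of wildtype replicates 1, 2 and 4 or knockout replicates 2 and 4 ended the call (edgeR-adjusted p of up to 0.169), as did asking for at least 3 core genes (log2 fold change 0.47, edgeR-adjusted p = 0.876). Erbb4 had a log2 fold change of 0.46 (edgeR-adjusted p = 0.258). The mean share of thinned co-detecting nuclei with Nxph1 was not higher in the knockout samples. That share rests on 6, 7 and 7 nuclei in knockout replicates 2, 3 and 4, so it cannot decide whether Nxph1 was found more often. Without thinning the share was 12.8 percentage points higher in the knockout samples, which did not pass the exact permutation test (p = 0.0571, n = 4 per group). The part of the larger share of co-detecting nuclei in cluster 4 in the rise of Nxph1 was not tested.

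The core genes chose these nuclei, so their levels in them are a description, with no test. Dlx6os1 was at 545, 572, 563 and 471 CPM in wildtype and 673, 649, 930 and 653 CPM in the knockout co-detecting nuclei. Dlx2 was at 67.1 ± 12.5 and 37.7 ± 20.8 CPM (n = 4 per group). Gad1, Gad2, Dlx6os1 and Dlx2 had log2 fold changes of 0.07, 0.14, 0.42 and -0.63. Knockout replicates 2, 3 and 4 gave 98496, 86540 and 80108 UMIs in such nuclei against 227553 to 606455 in the wildtype samples, which limits this comparison.

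As a share of thinned co-detecting nuclei, Erbb4 was found in 44.2%, 30.6%, 61.5% and 32.1% in wildtype and 73.1%, 66.7%, 57.1% and 57.1% in knockout samples. The thinned co-detecting nuclei numbered 52, 36, 26 and 56 in the wildtype samples and 52, 6, 7 and 7 in the knockout samples, so the last 3 shares rest on a few nuclei each. Wildtype replicate 3 lay among the knockout values. The difference of 21.4 percentage points had a two-sided p of 0.0857 in the exact permutation test, or 0.257 adjusted over Erbb4, Nxph1 and Sst. The exact permutation p-values of Nxph1 and Sst were 0.629 and 0.429 (n = 4 per group).

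Of the other genes within co-detecting nuclei, 31 were called higher and 73 lower (1.37%) in knockout samples. Those with the largest decrease were mt-Nd3 (380 UMIs in wildtype and 0 in the knockout samples), Gm17167 (334 and 20) and Gm32647 (616 and 47). Those with the largest increase were Gm28438 (0 and 115), Dnajc22 (0 and 38) and Gm49450 (33 and 169). All but Gm32647 were called over all nuclei in the same direction. Sox6, a transcription factor gene of progenitors and of medial eminence interneurons, rose from 729 ± 38.2 to 1282 ± 146 CPM (n = 4 per group; log2 fold change 0.81, edgeR-adjusted p = 0.00197). Cluster 4, where Sox6 was at 1726 ± 37.1 CPM in the wildtype and 1839 ± 250 CPM in the knockout samples (n = 4 per group), held a larger share of the co-detecting nuclei in every knockout sample than in any wildtype sample, and the part of this in the rise was not tested.

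The genes whose level was most like that of the core genes over samples and clusters were found by the correlation of log2(CPM + 1) with that of the summed core genes over 56 sums, 8 samples by 7 clusters, among 8902 genes with a mean of at least 10 CPM. Sums of a sample share a library and the genotype difference, so these values are a description. Gm14204 was most alike (r = 0.86), followed by Gm47283 (0.84), Gm17167 (0.79), Hjurp (0.78) and Scrn1 (0.78). Erbb4 was at rank 6 with 0.77, Nxph1 at rank 372 with 0.54 and Sst at rank 3401 with 0.29. Gm14204, a noncoding gene, was also among the genes with the largest increase in co-detecting nuclei, at 3.44 on the log2 scale, and was found at 14.9 ± 3.03 CPM in wildtype and 8.77 ± 3.20 CPM in the knockout samples (n = 4 per group; edgeR-adjusted p = 0.0861, 0.0133 with the replicate block and 0.0103 without knockout replicate 1).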

How the data were processed

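UMI counts per gene and nucleus were deposited by the authors for 8 samples, as raw counts; reads were processed with kallisto and bustools on mm10 per the submitters' processing notes, with versions, filters and strand setting not given in the sources used here. Cluster numbers and a doublet score come from the authors' deposited tables of nuclei. No score deposited by the authors is above 0.500, and doublets were not called again. The authors' deposited table of genes gives mean UMIs per nucleus, as other values, over an earlier set. The members and gene lists were chosen with earlier results of these data known.

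UMIs were summed per sample and compared with edgeR 4.0.16 (R 4.3.3) by TMM, filterByExpr, glmQLFit and glmQLFTest, with Benjamini-Hochberg adjustment over all genes tested, a threshold of 0.05 and genotype as the only term (the sample as a block for co-detecting against other nuclei). Shares were compared by exact two-sided permutation tests over samples (scipy 1.17.1) after thinning to 1400 UMIs per nucleus. Each sample held 20446698 UMIs or more, and each nucleus 1496 or more. Named genes were all members, and, among called genes with at least 10 UMIs per sample and 1 direction in all samples, the 12 highest and 6 lowest in co-detecting nuclei, the largest changes within them, and the fixed lists. Some genes these rules name are not reported here. Intervals are exact binomial at 95%. In simulated counts with 200 genes changed by a log2 of 1, the tests recovered 92.5% over all nuclei (13927 genes), 80.0% to 90.5% per cluster (10522 to 11935 genes), 61.0% for co-detecting against other nuclei (13111 genes) and 56.5% within co-detecting nuclei (5325 genes). Of the calls made in them, 2.63% were false over all nuclei and 4.47% (cluster 7) to 10.45% (cluster 1) per cluster. The false part was 6.15% for co-detecting against other nuclei and 4.24% within co-detecting nuclei.

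Replicate numbers are shared by both groups in the labels. Across genes, the 2 samples of a number deviated from their groups' means with correlations of 0.179 to 0.398, each over 0.1. The 12 other pairs gave -0.356 to 0.287, so some of them passed 0.1 as well. Wildtype replicate 3 with knockout replicate 4 (0.287) lay above each same-number pair but that of replicate 1 (0.398). No label says what a number marks, so whether the numbers pair the samples is not settled, and the replicate block is an alternative only. Alternatives were RLE size factors, no filter, the replicate block, DESeq2 1.42.0, each sample left out, at least 3 core genes, low doublet scores, no thinning and a cluster-matched reference. Sums without co-detecting nuclei and the share with exactly 1 core gene were chosen after seeing the data. The focus on knockout replicate 1 among the samples left out was also chosen then. Positions are from GENCODE M21 (GRCm38) by Ensembl identifier.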

Additional observations from a re-analysis of the deposited data

Results flagged for a closer look

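In groups of 4 samples, a sample was marked when its gap to the nearest other sample took up nearly all of the group's range (Dixon's test at 95%). Of 138 groups of values for the interneuron genes 19 were marked, where chance marks about 1 in 20 of independent groups, and 15 of the 19 were in knockout replicate 1. The groups share samples and nuclei and are not independent, so 1 unusual sample can give many marks and the count is a description.

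Over all nuclei, knockout replicate 1 was the highest of its group for Gad2 (21.7 CPM, next 8.16), Dlx6os1 (24.4 CPM, next 7.04), Nxph1 (36.1 CPM) and Erbb4 (111 CPM, next 37.8). The same sample was highest for Dlx6os1 in cluster 2 (13.4 CPM), cluster 3 (11.9 CPM), cluster 5 (33.2 CPM) and cluster 7 (23.0 CPM). It was also highest for Gad2 in cluster 3 (15.4 CPM), for Erbb4 in cluster 4 (239 CPM, next 81.4), and for Lhx6 (5.17 CPM) and Nxph1 (52.2 CPM) in cluster 7. It held the largest shares of its group of nuclei with at least 2 core genes (0.708%, next 0.0962%) and with exactly 1 (4.38%, next 2.25%). After thinning it also held the largest share of co-detecting nuclei with Sst (1.92%, the others 0). These shares with Sst rest on 52, 6, 7 and 7 nuclei in knockout replicates 1 to 4. Without thinning, knockout replicate 3 had the largest (19.0%, against 4.58% in replicate 1).

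Among the wildtype samples, replicate 4 was lowest for Erbb4 in cluster 4 (176 CPM, next 216). In cluster 7, wildtype replicate 1 was highest for Dlx6os1 (37.4 CPM, next 17.2) and Erbb4 (168 CPM, next 76.1), and wildtype replicate 2 for Sst (10.6 CPM, next 8.69).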

How the results depend on the processing

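Each result was recomputed with 1 choice changed at a time. Of the values for single genes, 987 kept their direction and side of the threshold, 46 passed it newly, 33 lost it and 21 changed sign. The number of interneuron genes called over all nuclei (2, where 3.58% of all genes were lower) was 4 with the replicate block (5.97%). It was 5 without co-detecting nuclei (3.57%). With 1 sample left out it was 0 to 7, the 7 without knockout replicate 1 (3.05%). The replicate block gave 4 in clusters 2, 3 and 7 and 3 in cluster 4, DESeq2 gave 1 in cluster 4, and no filter gave 1 in cluster 5. With 1 sample left out the counts were 2 to 5, 1 to 4, 0 to 3, 0 to 6, 0 to 3, 0 to 1 and 0 to 4 in clusters 1 to 7. With the block the exact permutation p of the co-detecting share was 0.250, where 0.125 is the lowest that 4 pairs allow.

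Genes called higher in co-detecting nuclei (800) were 269 with a cluster-matched reference, 339 with at least 3 core genes and 54 with low doublet scores, and those lower (970) were 522 with DESeq2, 211 with the matched reference and 213 with low scores. The fitted log2 value of Sst with low scores was -8.88, which is no bound since it had 0 UMIs there. Within co-detecting nuclei, genes higher in knockout samples (31) were 52 with no filter, 1 with at least 3 core genes and 19 to 37 with 1 sample left out. Genes lower (73) were 214, 1 and 42 to 96. With at least 3 core genes Gad1, Gad2 and Erbb4 were at -0.04, -0.29 and -0.03 on the log2 scale.

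The difference in the co-detecting share was 0.00322 percentage points with at least 3 core genes, -3.40 for exactly 1, and -0.421 to -0.203 with 1 sample left out. The share of co-detecting nuclei with Nxph1 differed by 12.8 points unthinned, 4.04 with low scores and -10.3 to 1.61 with 1 sample left out, and that with Sst by 0.643 unthinned. Changes of sign, none of a called value, were also seen with 1 sample left out. There the log2 values ranged from -0.01 to 0.22 for Nxph1 in cluster 2, -0.40 to 0.16 for Erbb4 in cluster 2, -0.06 to 0.42 for Nxph1 in cluster 5, -0.62 to 0.29 for Erbb4 in cluster 5, -0.37 to 0.07 for Nxph1 in cluster 6, -0.17 to 0.16 for Sst in cluster 6, -1.29 to 0.02 for Nxph1 in cluster 7 and -0.03 to 0.18 for Gad1 within co-detecting nuclei. Erbb4 in cluster 2 was at 0.00 with DESeq2. The cause of these shifts was not tested. With at least 3 core genes the shares of Nxph1, Erbb4 and Sst could not be compared, since a sample held no such nucleus. The few nuclei limit what can be seen within co-detecting nuclei.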
